A study of Homo sapiens with 10 samples.

Results

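The genes described here are 49 human genes of DNA replication and of the step into S phase, chosen by a list of gene symbols and followed in the leukaemia cell lines Kasumi-1 and NB4 with and without the agent JOA. All 49 were found in the NB4 table and 34 in the Kasumi-1 table, out of 23415 gene symbols in either table. The 15 members with no Kasumi-1 row under their symbol were CCNE1, CCNE2, CDC6, CDC25A, MCM5, MCM10, RRM1, GINS2, GINS3, ORC6, POLA1, POLE, CHAF1B, CLSPN and DSCC1. The 4 groups were Kasumi-1 cells with 1 µM JOA for 48 h (3 libraries), Kasumi-1 control cells at 48 h (3 libraries), NB4 cells with 1 µM JOA for 48 h (2 libraries) and NB4 control cells at 48 h (2 libraries). The labels do not say what the control treatment contained, and the source label of the treated NB4 libraries names I13 where their title, agent and treatment name JOA. Kasumi-1 is an acute myeloid leukaemia line with the RUNX1-RUNX1T1 fusion and NB4 is an acute promyelocytic leukaemia line with the PML-RARA fusion. Each line stands for 1 patient's leukaemia, and 1 dose and 1 time were sampled.

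In G1 phase the origin recognition complex, CDC6 and CDT1 load rings of MCM2 to MCM7 onto DNA, which licenses the origins. Cyclin E with its kinase releases E2F factors from the RB protein, and E2F1 and related factors then drive transcription of licensing factors, polymerases and enzymes of nucleotide synthesis. In S phase CDC45 and GINS join the MCM ring to form the moving helicase, and PCNA, loaded by the RFC complexes, holds the polymerases on DNA. Proliferating leukaemic blasts express these genes at high levels. In bulk RNA, fewer cells in S phase and less RNA per cell cannot be told apart.

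Because E2F factors are the classical regulators of this gene set, the upstream windows of the members were searched for 4 words of the E2F type, TTTCCCGC, TTTCGCGC, TTTGCCGC and TTTGGCGC, on both strands. RefSeq promoter windows on GRCh38.p14, taken as the 250 bases before each annotated start, were available for 44 of the 49 symbols. CCNE2, MCM4, MCM5, GINS4 and DSCC1 were not matched. At least 1 such word stood in 20 of 60 member windows (33.3%) and in 2.79% of all 35116 windows, or in 19 of 44 member symbols (43.2%) and 3.4% of 27305 symbols. The CCAAT box, searched as CCAAT on both strands, was in 53.3% of member windows and 32% of all windows. The GC box, searched as GGGCGG on both strands and able to overlap an E2F word, was in 73.3% of member windows and 42.6% of all windows. These matches are descriptions of letters and not of bound sites.

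Sequences are shown for the 4 members on which the results below turn, 5′ to 3′ on the strand of the gene, with the E2F-type words in capitals. UNG has 2 windows and E2F1 has 1, and for these the stretch outside annotated exons is printed. The E2F1 window holds 2 such words, of which the printed stretch shows 1, since the other reaches into an annotated exon. For DTL and MCM7 the words lie within annotated first exons, so 30 bases around each word are printed. The UNG stretches are at chr12:109097347-109097573 and chr12:109097922-109098117 on the plus strand. That of E2F1 is at chr20:33686405-33686635 on the minus strand. The sites are at chr1:212035718-212035747 on the plus strand for DTL, and at chr7:100101566-100101595 and chr7:100101398-100101427 on the minus strand for MCM7.
UNG first start: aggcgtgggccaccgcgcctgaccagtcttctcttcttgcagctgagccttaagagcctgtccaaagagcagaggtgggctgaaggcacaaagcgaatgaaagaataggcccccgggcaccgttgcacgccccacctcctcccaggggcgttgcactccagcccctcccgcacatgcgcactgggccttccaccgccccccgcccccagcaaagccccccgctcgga
UNG second start: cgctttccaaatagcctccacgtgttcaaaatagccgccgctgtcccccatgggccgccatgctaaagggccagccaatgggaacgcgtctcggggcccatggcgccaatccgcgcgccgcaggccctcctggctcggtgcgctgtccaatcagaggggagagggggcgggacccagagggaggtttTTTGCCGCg
E2F1: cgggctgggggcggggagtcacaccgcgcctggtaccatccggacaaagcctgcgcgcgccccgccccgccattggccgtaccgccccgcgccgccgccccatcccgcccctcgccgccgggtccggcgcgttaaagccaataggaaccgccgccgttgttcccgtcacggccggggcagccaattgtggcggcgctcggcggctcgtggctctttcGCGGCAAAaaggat
DTL: caatcagagagcgtgacgtcagTTTGGCGC
MCM7 farther word: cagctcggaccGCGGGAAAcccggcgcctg
MCM7 nearer word: ccggtcacgtggggggcgacgTTTCGCGCc

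The Kasumi-1 values are FPKM, that is fragments scaled by transcript length and library size, and the NB4 values are TPM, which are scaled by length and sum to 999679 to 999758 in a library. Each table has its own normalisation, and no level is set against the other line. Whole fragments could be recovered from the steps of the FPKM values. Over the 12130 of 29053 rows at 1 FPKM or more in at least 3 libraries they summed to 16245952 to 17781486 per Kasumi-1 library. That is a part of each library and not its full depth. TPM keeps no depth, and that of NB4 is unknown. MPO, a granule enzyme of myeloid blasts, stood at 5289 to 5856 FPKM with JOA and 5371 to 6096 FPKM in control in Kasumi-1, and at 4679 and 5886 TPM with JOA and 7693 and 7983 TPM in control in NB4. RUNX1T1 stood at 17.1 to 20.2 FPKM with JOA and 17.9 to 19.4 FPKM in control in Kasumi-1, and CD34 and RUNX1T1 were under 1 TPM in all NB4 libraries. The myeloid list summed to 5590 to 6195 FPKM with JOA and 5808 to 6441 FPKM in control in Kasumi-1 (7 of 13 genes with a row), and to 5328 to 6728 TPM with JOA and 8920 to 9045 TPM in control in NB4 (9 of 13 at 1 TPM or more throughout).

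Few markers of other cell types had a row in Kasumi-1, and a missing row says nothing of the level. No T cell marker had a row there, 1 of 4 B cell markers summed to 0.961 to 1.68 FPKM with JOA and 0.722 to 1.69 FPKM in control, and 3 of 5 erythroid markers were under 1 FPKM throughout. The epithelial and fibroblast list had 1 of 6 genes with a row there, EPCAM, at 33.1 to 43.3 FPKM with JOA and 35.5 to 44.4 FPKM in control. In NB4 the T cell list (1 of 5 genes at 1 TPM or more throughout, CD3E, CD3G and CD2 under 1) summed to 36.2 to 47.8 TPM with JOA and 26.4 to 27.8 TPM in control. The B cell list (3 of 4 genes) summed to 24.2 to 24.8 TPM with JOA and 19.3 to 19.7 TPM in control, and all 5 erythroid markers were under 1 TPM. The epithelial and fibroblast list of NB4 (4 of 6 genes, COL1A1 and COL1A2 under 1) summed to 622 to 842 TPM with JOA and 445 to 657 TPM in control. These 4 genes are KRT8, KRT18, EPCAM and VIM, and the sum does not tell which of them holds it. The 13 mitochondrially encoded protein genes took 11.2% and 13.1% of NB4 TPM with JOA, against 14.6% and 16.4% in control. The part of these marker levels in the results was not tested, apart from the mitochondrial share, whose removal is given below.

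In NB4 the 49 listed members stood lower with JOA than in control as a group, by small amounts, and no member passed the test across all genes. They were chosen with earlier results of these data known. Of 26 other fork and origin genes 13 were negative, and of 15 other nucleotide synthesis genes 8 were (19 and 13 with median-ratio scaling). Of the 49 members, 42 had a negative log2 change, where 33.8% of the 12941 genes tested did, and the median over the members was -0.14 on the log2(TPM + 1) scale, where that over all genes was 0.08. Both JOA libraries lay below both controls in 28 members, against 11% of all genes, and above them in 2 members, CCNE1 and DSCC1, against 32.5% of all genes. The largest changes were those of UNG, which removes uracil from DNA, and DTL, which targets CDT1 for destruction in S phase. All 49 members passed the filter of 1 TPM in at least 2 libraries.

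The test in NB4 was limma with Benjamini-Hochberg adjustment over all genes tested, and it called 0 members and 1 gene in all (0.00773%). At an unadjusted p under 0.05, 7 members were lower and 0 higher, where 2.42% of all genes were lower and 8.2% higher. These 7 were UNG, DTL, E2F1, MCM2, RFC2, GINS2 and MCM7. Leaving out the mitochondrially encoded transcripts and rescaling gave 45 negative members with a median of -0.20, where 42.9% of all genes were negative with a median of 0.04. With median-ratio scaling of the libraries 46 of 49 members were negative with a median of -0.24, where 50.6% of all genes were negative. In the values so scaled, 39 members lay below both controls, against 20% of all genes, and 0 above, against 19.9%, so CCNE1 and DSCC1 overlapped.

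In Kasumi-1 the members differed little between JOA and control. Of the 33 members tested, 21 had a negative log2 change, where 38.1% of the 12101 genes tested did, and the median was -0.05, where that over all genes was 0.05. Every JOA library lay below every control in 7 members, MCM4, MCM7, RFC2, FEN1, UNG, MSH6 and DTL, against 7.1% of all genes. Every JOA library lay above every control in 3 members, E2F1, E2F2 and TK1, against 16% of all genes. RRM2 had a row but was under the filter of 1 FPKM in at least 3 libraries.

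Without pairing, limma called 0 members and 0 genes in Kasumi-1 (0%), and limma voom on the recovered fragments also called 0. At an unadjusted p under 0.05, 2 members were lower (MCM7 and RFC2) and 1 was higher (E2F1), where 4.68% of all genes were lower and 11.7% higher. Libraries with the same replicate number deviated together in Kasumi-1. With that number as a block limma called 985 genes (8.14% of those tested), of which 249 were lower (2.06% of those tested). Among them was 1 of the 33 members, MCM7, which was lower. Control replicate 2 stood high for these genes, and without it the median was -0.00 and 17 of 33 members were negative. With median-ratio scaling 22 of 33 members and 49.2% of all genes were negative. In the values so scaled, 12 members lay below every control, against 11.8% of all genes, and 0 above, against 11.3%, so E2F1, E2F2 and TK1 overlapped.

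**Figure D1:**
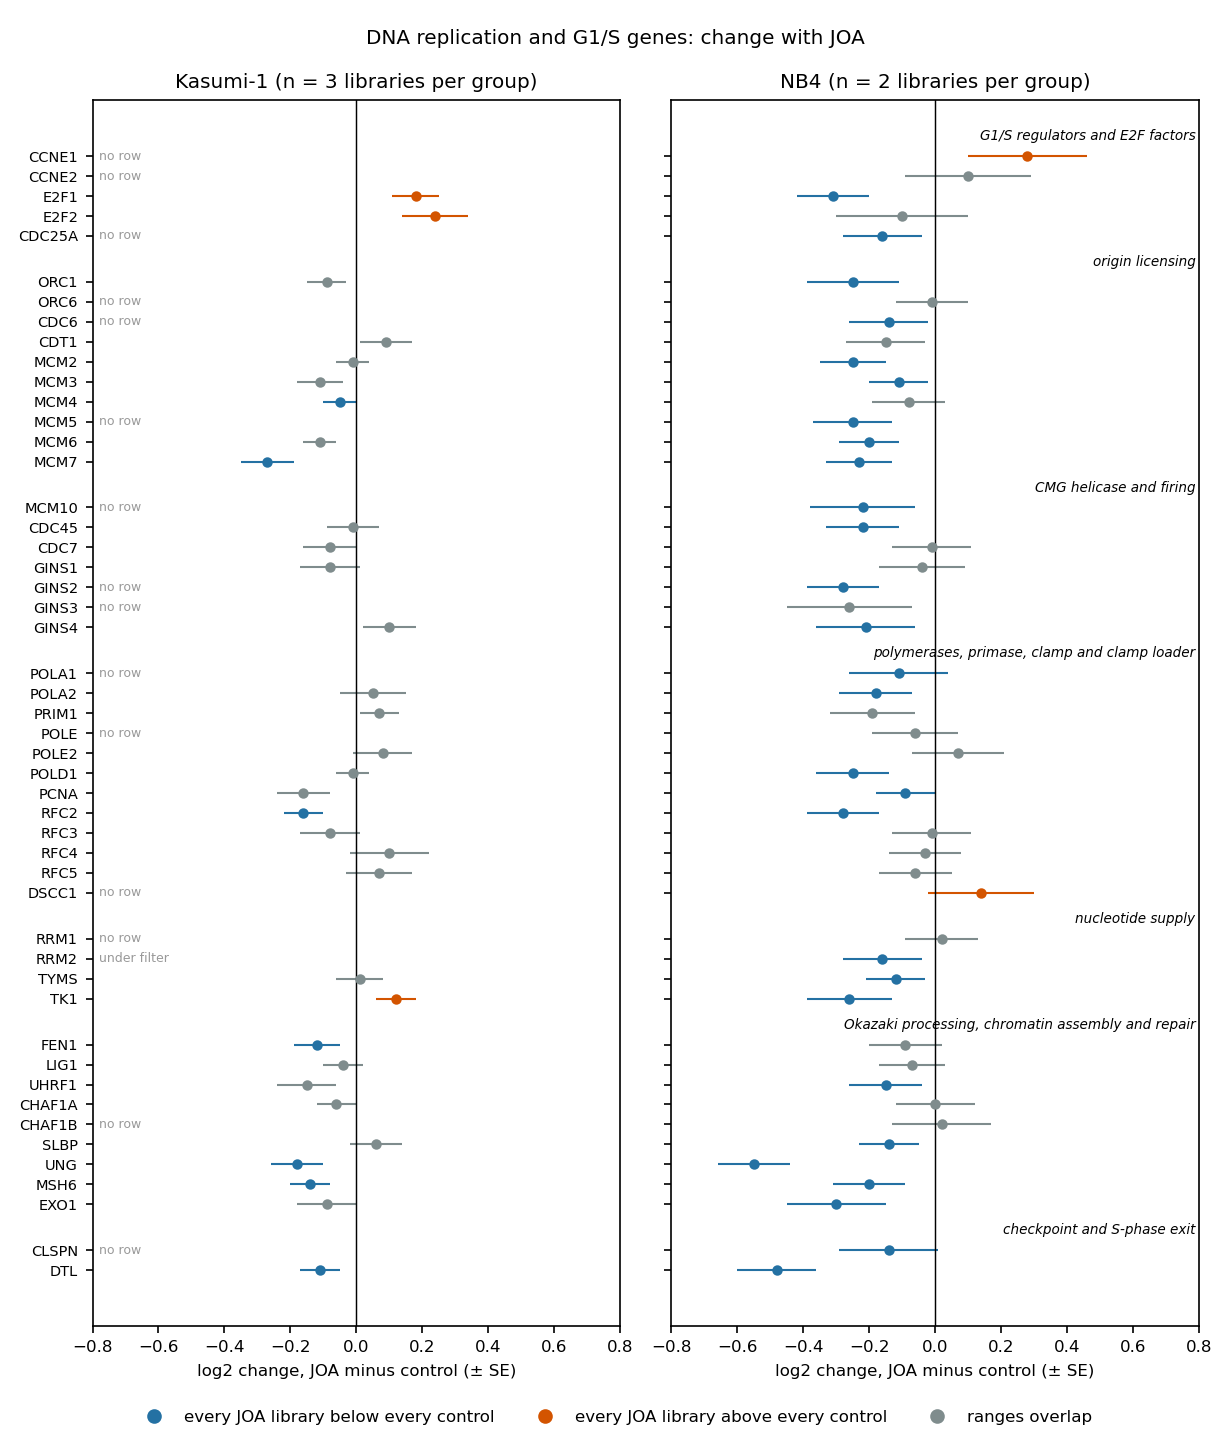
Log2 change (JOA minus control, on the log2(value + 1) scale) with its standard error for each member, by role, in Kasumi-1 (left, 3 libraries per group) and NB4 (right, 2 libraries per group); colour marks whether the ranges of the groups overlap. In NB4 28 members lie below control without overlap and 2 above, against 11% and 32.5% of all genes, and in Kasumi-1 7 lie below and 3 above, against 7.1% and 16% of all genes.

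The values behind these counts and medians were also summarised library by library, which adds no separate evidence. The members summed to 4950 and 4958 TPM in the JOA libraries of NB4, against 5546 and 5496 TPM in its controls. Each JOA library of NB4 had a member median of -0.15 or -0.13 relative to the mean of the controls, while the medians over all genes were 0.08 and 0.09. In Kasumi-1 the members with a row summed to 1092, 1091 and 1072 FPKM with JOA, against 1118, 1208 and 1091 FPKM in control, so the lowest control overlapped the JOA libraries. Relative to the mean of the controls, the member medians of Kasumi-1 were -0.05, -0.06 and -0.03 in the JOA libraries and -0.02, 0.08 and -0.05 in controls 1, 2 and 3, so that control 2 stood above the rest.

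**Figure D2:**
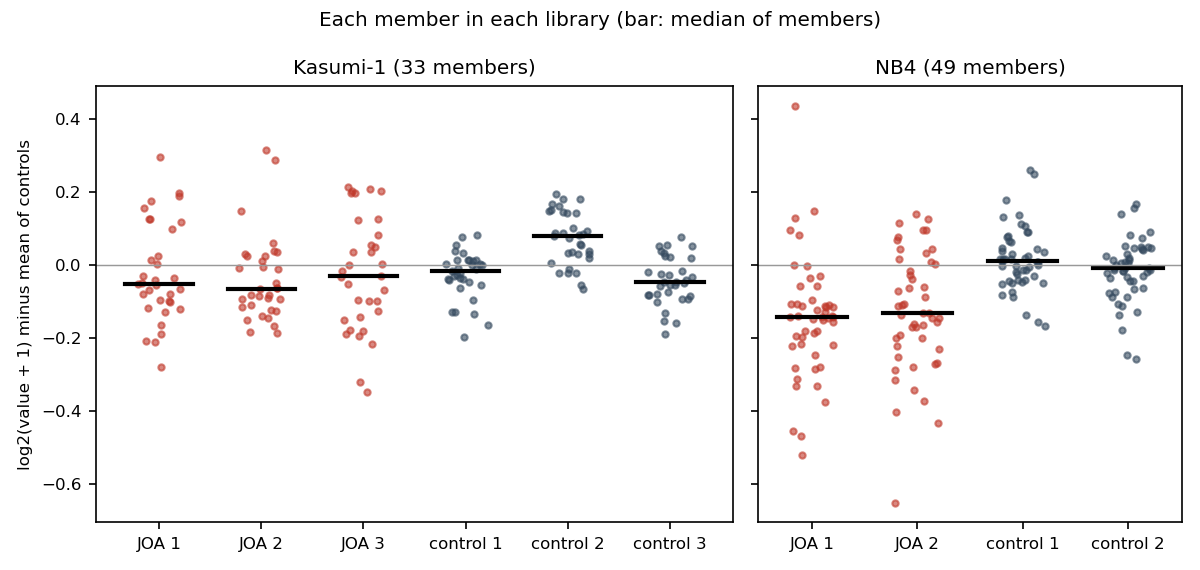
Each member in each library as log2(value + 1) minus the mean of the controls of its line, with JOA libraries on the left of each panel; points are members and bars are the medians over the 33 members tested in Kasumi-1 and the 49 in NB4. Both JOA libraries of NB4 have their median below 0, at -0.15 and -0.13, while control 2 of Kasumi-1 stands above the other libraries of its line at 0.08.

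Levels per length spread widely among the members. In NB4 PCNA, the sliding clamp, averaged 474 TPM with JOA and 506 TPM in control, and MCM7, a subunit of the helicase ring, averaged 447 TPM with JOA and 524 TPM in control. These were the highest members in both groups, and their order was turned round between the groups. LIG1, the ligase of Okazaki fragments, followed at 336 TPM with JOA and 352 TPM in control. In Kasumi-1 PCNA was also highest, at 131 FPKM with JOA and 147 FPKM in control.

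Among the regulators of the G1/S step, E2F1, the transcription factor that drives many of the other members, had changes of opposite sign in the lines. Neither change was called, and nor was the difference between them (limma adjusted p = 0.188). In NB4 E2F1 stood at 51.6 and 47.2 TPM with JOA, against 63.4 and 59.5 TPM in control, which is a difference of -0.31 on the log2 scale (SE 0.11, limma adjusted p = 0.409). In Kasumi-1 it stood at 23.5, 19.5 and 21.9 FPKM with JOA, against 18.8, 19.5 and 18.6 FPKM in control, which is a difference of 0.18 on that scale (SE 0.07, limma adjusted p = 0.299). The groups of NB4 lay clearly apart, while in Kasumi-1 the lowest JOA and the highest control library were alike to 3 digits, and with median-ratio scaling the Kasumi-1 groups overlapped. E2F1 had 385 to 488 fragments per Kasumi-1 library, which gives a counting error of 4.81%, against a spread of 9.18% between JOA and 2.45% between control libraries.

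E2F2, another activator of the family, stood at 6.23, 6.90 and 6.33 FPKM with JOA and at 5.39, 6.19 and 4.57 FPKM in control in Kasumi-1 (log2 change 0.24, SE 0.10, limma adjusted p = 0.318). In NB4 it overlapped, at 4.46 and 3.76 TPM with JOA and 4.76 and 4.19 TPM in control. CCNE1, cyclin E1, had the largest positive change of the members in NB4 when all libraries were used, at 11.8 and 9.24 TPM with JOA and 8.34 and 8.59 TPM in control (log2 change 0.28, SE 0.18, limma adjusted p = 0.614). It was 0.11 without JOA replicate 1 and 0.44 without JOA replicate 2, and without control replicate 1 the change of CCNE2 was larger (0.35, against 0.26 for CCNE1). CCNE2, cyclin E2, overlapped at 15.2 and 15.7 TPM with JOA and 17.2 and 11.9 TPM in control, and its log2 change of 0.10 was -0.02 with quantile scaling. CDC25A, the phosphatase that activates the cyclin E kinase, averaged 33.4 TPM with JOA and 37.5 TPM in control in NB4. Neither the cyclins nor CDC25A had a Kasumi-1 row.

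All 10 licensing factors had negative log2 changes with JOA in NB4, at -0.25 to -0.01, where 33.8% of all genes were negative. In 7 of the 10 the groups did not overlap, against 11% of all genes, and none passed the adjusted threshold. MCM7 stood at 460.1 and 434 TPM with JOA and 515 and 533 TPM in control (log2 change -0.23, SE 0.10, limma adjusted p = 0.457). MCM2 stood at 139 and 128 TPM with JOA and 158 and 161 TPM in control (-0.25, SE 0.10, limma adjusted p = 0.437). MCM5 stood at 126 and 121 TPM with JOA and 132 and 164 TPM in control, and MCM6 at 141 and 146 TPM with JOA and 164 and 165 TPM in control. These 4 subunits of the ring thus had both JOA libraries below both controls.

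MCM3 stood at 233 TPM in both JOA libraries and at 258 and 246 TPM in control, again without overlap. MCM4 overlapped, at 245 and 237 TPM with JOA and 276 and 236 TPM in control, and without control replicate 1 its log2 change of -0.08 was 0.03. ORC1, a subunit of the origin recognition complex, averaged 27.9 TPM with JOA and 33.3 TPM in control, and CDC6, which loads the ring, averaged 27.9 TPM with JOA and 30.9 TPM in control, both without overlap. CDT1, its partner in loading, averaged 238 TPM with JOA and 265 TPM in control, and ORC6 73.0 TPM with JOA and 73.2 TPM in control, and these groups overlapped. The changes of MCM4 (-0.08, SE 0.11) and ORC6 (-0.01, SE 0.11) were smaller than their standard errors.

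In Kasumi-1 MCM7 was the 1 member called of the 33 tested, and only with the replicate number as a block. It stood at 88.1, 94.1 and 84.1 FPKM with JOA and at 106, 119 and 97.9 FPKM in control, that is at 82.5% of control. All 3 JOA libraries lay below all 3 controls, and with 6127 to 9110 fragments per library the counting error was 1.17%, against spreads of 5.66% between JOA and 9.74% between control libraries. The log2 change was -0.27 (SE 0.08), with a limma adjusted p of 0.0323 with the replicate block and of 0.202 without it. That block called 8.14% of all genes in either direction and 2.06% lower. Its pairing was taken from these same values and not from a label, so the call is no independent result about MCM7. MCM7 lies at chr7:100092728-100101940 on the minus strand of GRCh38 and overlaps AP4M1 on the other strand. Whether the authors counted by strand is not given in the sources used here.

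The other subunits of the ring with a Kasumi-1 row differed less. MCM6 stood at 58.9, 54.8 and 54.9 FPKM with JOA and 61.3, 62.1 and 58.7 FPKM in control, MCM3 at 75.9, 74.4 and 69.5 FPKM with JOA and 79.1, 84.2 and 73.9 FPKM in control. MCM4 stood at 57.4, 55.1 and 57.6 FPKM with JOA and 58.5, 57.9 and 60.2 FPKM in control, the only one of these 3 without overlap. MCM2 was at 67.4, 66.5 and 64.4 FPKM with JOA and 66.7, 68.5 and 65.2 FPKM in control, and its log2 change of -0.01 turned to 0.04 with quantile scaling. The median over the 5 subunits was -0.11 in Kasumi-1 and that over all 6 was -0.21 in NB4.

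**Figure D3:**
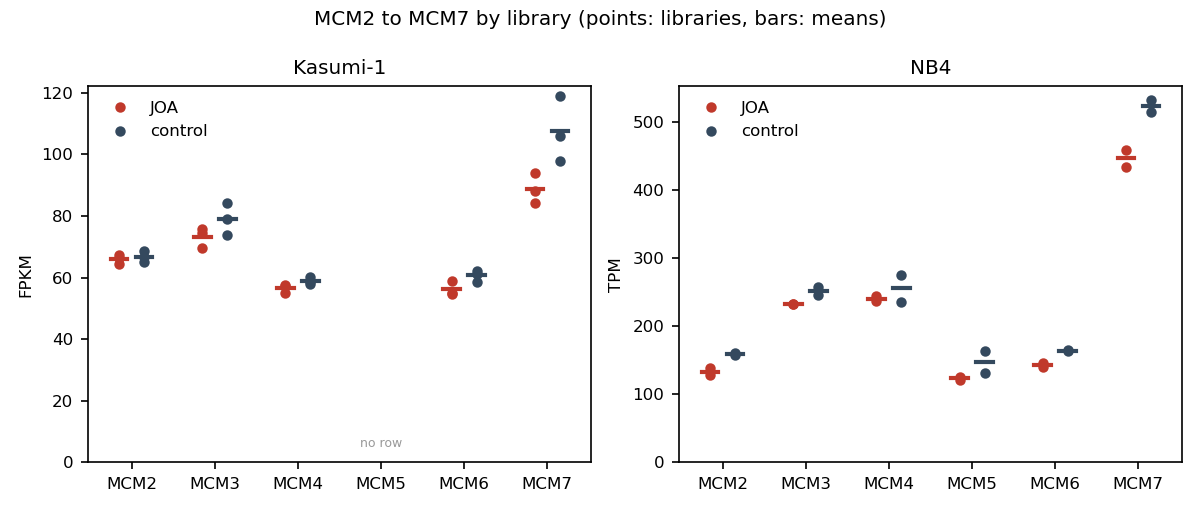
Level of each subunit of the MCM2 to MCM7 ring in each library, in FPKM for Kasumi-1 (left) and TPM for NB4 (right), with JOA left of control; points are libraries and bars are means. MCM7 is lower with JOA than in control in both lines, at 88.8 FPKM with JOA and 108 FPKM in control in Kasumi-1 and 447 TPM with JOA and 524 TPM in control in NB4, and MCM5 has no Kasumi-1 row.

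Of the 7 genes of helicase assembly and firing, all had a negative change in NB4, where 33.8% of all genes did, and 4 did not overlap, against 11% of all genes. GINS2, a subunit of the GINS complex, stood at 37.0 and 38.6 TPM with JOA and 44.6 and 47.8 TPM in control (log2 change -0.28, SE 0.11, limma adjusted p = 0.454). GINS4 of the same complex stood at 14.2 and 15.9 TPM with JOA and 18.7 and 16.4 TPM in control. CDC45, the partner of GINS on the ring, averaged 64.2 TPM with JOA and 74.7 TPM in control, and MCM10, which activates the helicase, 17.0 TPM with JOA and 19.9 TPM in control. GINS3 had a like change (-0.26) but overlapped, and GINS1 and the kinase CDC7, at -0.04 and -0.01, differed less than their standard errors of 0.13 and 0.12.

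In Kasumi-1 the 4 measured genes of this role all overlapped, with log2 changes of -0.08 to 0.10. GINS4 had the lowest p of them, at 3.53, 3.04 and 3.38 FPKM with JOA and 3.02, 2.95 and 3.07 FPKM in control (log2 change 0.10, SE 0.08, limma adjusted p = 0.577). Its 278 to 321 fragments per library give a counting error of 5.82%, beside spreads of 7.55% between JOA and 1.95% between control libraries.

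Among the polymerases, primase, clamp and clamp loaders, 10 of 12 members had a negative change in NB4, where 33.8% of all genes did, and 5 of these did not overlap, against 11% of all genes. RFC2, a subunit of the clamp loader, stood at 67.0 and 67.7 TPM with JOA and 77.2 and 86.6 TPM in control (log2 change -0.28, SE 0.11, limma adjusted p = 0.440). In Kasumi-1 RFC2 stood at 15.9, 16.4 and 16.9 FPKM with JOA and 19.6, 18.8 and 17.3 FPKM in control (-0.16, SE 0.06, limma adjusted p = 0.269). It was therefore lower without overlap in both lines, while RFC3, RFC4 and RFC5 overlapped in both as deposited and lay between -0.06 and -0.01 in NB4.

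PCNA stood at 467 and 481 TPM with JOA and 504 and 507 TPM in control in NB4, and at 126, 138 and 129 FPKM with JOA and 139.9, 164 and 136 FPKM in control in Kasumi-1. The NB4 groups lay apart by a small amount (log2 change -0.09, SE 0.09), and those of Kasumi-1 overlapped (-0.16, SE 0.08). POLD1, the catalytic subunit of polymerase delta, averaged 136 TPM with JOA and 161 TPM in control in NB4, without overlap, and its log2 change of -0.25 was -0.07 when only protein-coding transcripts were summed. POLA1 and POLA2 of polymerase alpha were also lower without overlap in NB4 (-0.11 and -0.18), while the primase subunit PRIM1 and the polymerase epsilon genes POLE and POLE2 overlapped. DSCC1, a part of an alternative clamp loader, stood at 15.5 and 15.4 TPM with JOA and 15.3 and 12.6 TPM in control. None of these members passed the adjusted threshold in either line.

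Of the enzymes of nucleotide supply, TK1, thymidine kinase of the salvage route, lay on opposite sides of control in the lines. In NB4 it stood at 56.4 and 46.0 TPM with JOA and 58.1 and 64.5 TPM in control (log2 change -0.26, SE 0.13, limma adjusted p = 0.535), and the change was -0.12 without JOA replicate 2 and -0.41 without JOA replicate 1. In Kasumi-1 it stood at 94.0, 88.8 and 99.5 FPKM with JOA and 87.4, 88.4 and 84.1 FPKM in control (0.12, SE 0.06, limma adjusted p = 0.373). The groups did not overlap in either line in the values as deposited, but with median-ratio scaling those of Kasumi-1 did. The difference between the changes of the lines was 0.38 and was not called (limma adjusted p = 0.296).

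TYMS, which makes thymidylate, stood at 255 and 252 TPM with JOA and 278 and 275 TPM in control in NB4. It overlapped in Kasumi-1, at 14.3, 12.9 and 15.4 FPKM with JOA and 13.5, 14.1 and 14.6 FPKM in control, where its log2 change of 0.01 was -0.04 with median-ratio scaling and -0.03 with quantile scaling. RRM2, the regulated subunit of ribonucleotide reductase, stood at 316 and 311 TPM with JOA and 317 and 384 TPM in control in NB4, so that the lower control nearly met the JOA libraries. RRM1, the large subunit, overlapped, at 66.4 TPM with JOA and 65.4 TPM in control. The Kasumi-1 row under the RRM2 symbol held 0.603 to 0.916 FPKM with JOA and 0.606 to 1.09 FPKM in control, or 20 to 38 fragments per library, and was not tested. TYMS overlaps ENOSF1 on the other strand, and both TYMS and RRM2 have named pseudogenes, so reads of near-identical copies could be split.

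UNG, uracil-DNA glycosylase, had the largest change of all members in NB4. It stood at 139.9 and 122 TPM with JOA and 203 and 182 TPM in control, that is at 68.0% of control, and the groups lay well apart. The log2 change was -0.55 (SE 0.11, 95% interval -0.82 to -0.29) with an unadjusted p of 0.00148 and a limma adjusted p of 0.201. Where the variance was shared over both lines in a fit of 7261 genes, UNG was called lower with a limma adjusted p of 0.0244. That fit assumes the same variance of a gene in both lines, although their values differ in unit and normalisation, and this was not tested. In Kasumi-1 it stood at 45.5, 46.5 and 39.5 FPKM with JOA and 51.5, 50.6 and 46.8 FPKM in control, also without overlap (-0.18, SE 0.08, limma adjusted p = 0.309, and 0.0555 with the replicate block).

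The UNG gene lies at chr12:109097574-109110992 on the plus strand of GRCh38, with the named pseudogenes UNGP1 and UNGP3, and makes a nuclear and a mitochondrial enzyme from its 2 starts. The transcript of the nuclear form, UNG-201, held 72.9% of the control TPM of the gene in NB4. It stood at 104 and 96.5 TPM with JOA and 139 and 141 TPM in control, or 71.5% of control. That of the mitochondrial form, UNG-202, stood at 13.5 and 11.1 TPM with JOA and 15.7 and 16.4 TPM in control, or 76.2% of control. A retained-intron transcript, UNG-205, stood at 21.6 and 13.4 TPM with JOA and 45.7 and 21.8 TPM in control, and its groups lay apart by less than their spread. Transcripts from both starts were thus lower with JOA, and the E2F-type word printed above lies in the window of the second start. With only protein-coding transcripts summed the log2 change of UNG was -0.47 (limma adjusted p = 0.144).

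DTL, the substrate receptor of an E3 ligase that removes CDT1 during S phase, had the next largest change in NB4. It stood at 29.9 and 31.8 TPM with JOA and 41.9 and 44.8 TPM in control, that is at 71.1% of control, and the groups lay well apart. The log2 change was -0.48 (SE 0.12, 95% interval -0.75 to -0.20) with a limma adjusted p of 0.276. DTL was called lower with a limma adjusted p of 0.0195 (SE 0.08) where the same variance was assumed for both lines. UNG and DTL were the 2 members called by that fit among the 34 it held, where it called 0.468% of all genes lower.

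With only protein-coding transcripts summed the log2 change of DTL was -0.24 (limma adjusted p = 0.496). Its coding transcript DTL-201 stood at 14.6 and 16.6 TPM with JOA and 19.7 and 18.3 TPM in control, or 81.8% of control. The processed transcript DTL-205 stood at 5.75 and 4.77 TPM with JOA and 10.6 and 12.3 TPM in control, or 45.9% of control. In Kasumi-1 DTL stood at 19.3, 19.6 and 19.8 FPKM with JOA and 20.5, 22.4 and 20.8 FPKM in control, a small difference without overlap (-0.11, SE 0.06, limma adjusted p = 0.361). The gene lies at chr1:212035553-212107400 on the plus strand.

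**Figure D4:**
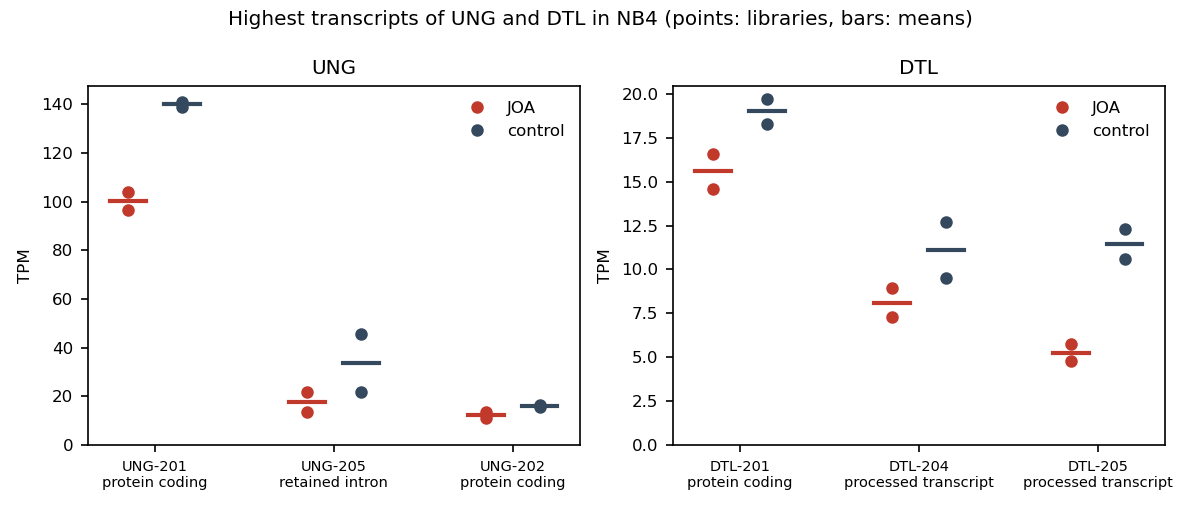
The 3 highest transcripts of UNG (left) and DTL (right) in NB4, in TPM, with JOA left of control; points are the 2 libraries of each group and bars are means. UNG-201 is at 104 and 96.5 TPM with JOA and 139 and 141 TPM in control, and DTL-205 is at 5.75 and 4.77 TPM with JOA and 10.6 and 12.3 TPM in control.

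The other genes of Okazaki processing, chromatin assembly and repair varied. MSH6, a mismatch repair protein, was lower without overlap in both lines, at 88.1 TPM with JOA and 102 TPM in control in NB4 (log2 change -0.20) and 19.0 FPKM with JOA and 21.0 FPKM in control in Kasumi-1 (-0.14). It overlaps FBXO11 on the other strand, and its NB4 change was -0.09 from protein-coding transcripts. EXO1, an exonuclease of the same pathway, averaged 22.4 TPM with JOA and 27.8 TPM in control in NB4, and SLBP, which binds histone messenger RNA, 161 TPM with JOA and 178 TPM in control, both without overlap. UHRF1, which reads methylated DNA at the fork, averaged 49.7 TPM with JOA and 55.1 TPM in control in NB4, also without overlap. FEN1, the flap nuclease, overlapped in NB4 and lay apart in Kasumi-1, at 37.2 FPKM with JOA and 40.4 FPKM in control. LIG1, CHAF1A and CHAF1B, the last 2 being subunits of the chromatin assembly factor, overlapped in every line where they were measured, but with median-ratio scaling JOA lay below control without overlap in all of these except CHAF1A in NB4. CLSPN, the checkpoint mediator claspin, averaged 14.6 TPM with JOA and 16.1 TPM in control in NB4, without overlap.

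Across the 366 member transcripts of NB4, the makeup by transcript type was alike in both groups. Protein-coding transcripts held 72.0% and 71.5% of the members' TPM with JOA and 71.9% and 72.6% in control. Retained-intron transcripts held 20.6% and 20.4% with JOA and 21.0% and 19.6% in control. With only protein-coding transcripts summed 45 of 49 members were negative with a median of -0.15, where 32.0% of all genes were negative with a median of 0.09. Single members moved more: TYMS was at -0.28 in place of -0.12 and GINS4 at -0.42 in place of -0.21.

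The lists of other pathway genes are given for NB4 by their counts and medians, beside all genes, of which 33.8% were negative with a median of 0.08, and 50.6% with median-ratio scaling. Of 26 other fork and origin genes, 13 were negative with a median of 0.00, and 19 with a median of -0.09 with median-ratio scaling. The lowest p there belonged to RPA3, a subunit of the protein that coats single-stranded DNA, at 61.7 and 62.7 TPM with JOA and 70.1 and 78.9 TPM in control (limma adjusted p = 0.477). The next, POLD4, was higher with JOA, at 36.9 and 30.3 TPM against 29.0 and 26.0 TPM in control (limma adjusted p = 0.540). Of 15 other genes of nucleotide synthesis, 8 were negative with a median of -0.06 (13 and -0.16 with median-ratio scaling). NME1, a nucleoside diphosphate kinase, averaged 206 TPM with JOA and 253 TPM in control, and MTHFD1 142 TPM with JOA and 164 TPM in control. SAMHD1 was higher with JOA, at 32.1 TPM against 25.6 TPM in control.

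Of 24 RB-E2F regulators tested of 27 listed, 11 were negative with a median of 0.06 (12 and -0.03 with median-ratio scaling). CDKN2D, an inhibitor of the cyclin D kinases, stood at 32.2 and 29.0 TPM with JOA and 24.0 and 20.5 TPM in control (log2 change 0.45, SE 0.14, limma adjusted p = 0.351). CDKN1C, another inhibitor, stood at 2.51 and 1.80 TPM with JOA and 0.932 and 0.580 TPM in control (0.84, SE 0.27, limma adjusted p = 0.354). Its values lie near the filter of 1 TPM, which it passed only through the JOA libraries, so its rise was favoured by the filter. Of 20 genes of the S-phase checkpoint and homologous repair, 9 were negative with a median of 0.02 (14 and -0.07 with median-ratio scaling), and FANCD2, a crosslink repair protein, averaged 44.7 TPM with JOA and 38.1 TPM in control. Of 35 mitosis genes, 0 were negative, where 33.8% of all genes were, the median was 0.33 and 29 lay above control without overlap, where 32.5% of all genes did. HMMR, a spindle protein, stood at 41.9 and 41.6 TPM with JOA and 26.8 and 30.3 TPM in control (limma adjusted p = 0.246). None of the genes in these lists was called, and with median-ratio scaling 2 mitosis genes were negative and their median was 0.23.

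In Kasumi-1 the same lists had medians of -0.01 (other fork and origin genes, 20 tested), -0.02 (nucleotide synthesis, 7), -0.03 (RB-E2F regulators, 18), -0.01 (checkpoint and homologous repair, 15) and -0.01 (mitosis, 27). With the replicate block 5 of the 87 genes tested in these lists were called (5.75%), below the 8.14% of all genes called in either direction. Such a share does not set these lists apart from all genes, and the 5 are given for their values only. DBF4, the activator of the CDC7 kinase, stood at 11.9, 12.8 and 12.2 FPKM with JOA and 13.9, 15.0 and 14.8 FPKM in control (limma adjusted p = 0.0396). CDK4, the cyclin D kinase, stood at 36.3, 38.0 and 34.2 FPKM with JOA and 42.9, 44.8 and 38.7 FPKM in control (limma adjusted p = 0.0379). SKP2, which targets the inhibitor p27 for destruction, had a log2 change of -0.21 (limma adjusted p = 0.0467). RBL2, a relative of RB, and CDC25C, a phosphatase of mitotic entry, had changes of 0.23 and 0.31 (limma adjusted p = 0.044 and 0.0494). Without pairing their limma adjusted p lay between 0.162 and 0.316.

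**Figure D5:**
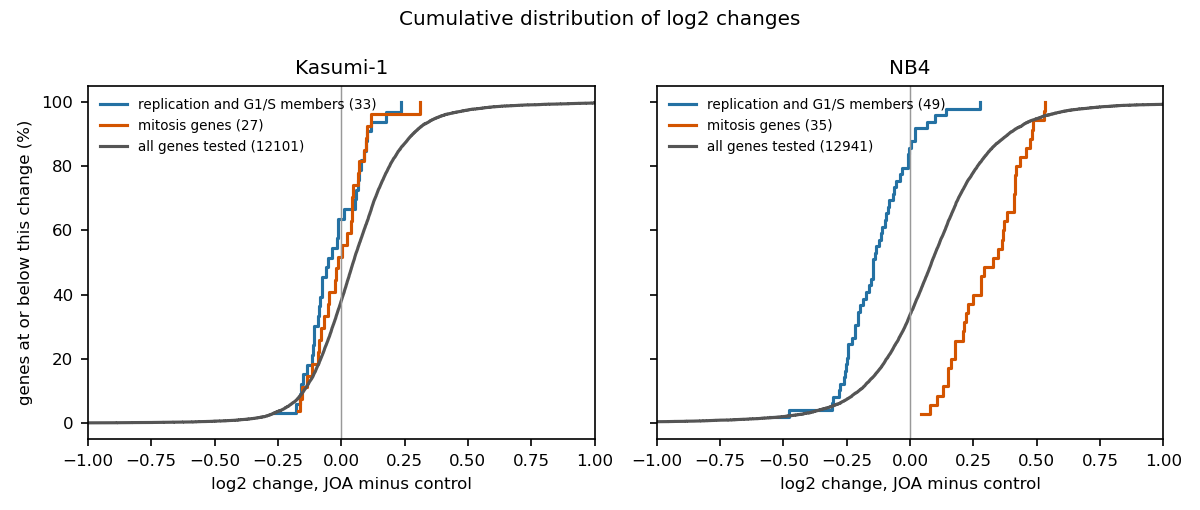
Cumulative share of genes (%) at or below each log2 change (JOA minus control) for the replication and G1/S members, the mitosis list and all genes tested, in Kasumi-1 (left) and NB4 (right); changes beyond 1 in size are not drawn. In NB4 the members have a median of -0.14, the mitosis genes 0.33 and all genes 0.08, and in Kasumi-1 the medians are -0.05, -0.01 and 0.05.

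The responses of the lines were then compared directly, in 1 limma fit over all 10 libraries and 7261 genes with a symbol in both tables. Each member rests on 1 sequence record in Kasumi-1 but on the sum of its transcripts in NB4. The UNG record is that of UNG-202, with 8.36% of the NB4 control TPM of the gene, and the PCNA record matches 0.849%. The LIG1 record is a noncoding one. Whether a Kasumi-1 row counts the whole gene is not given in the sources used here, so the measures may be unlike. The change with JOA in Kasumi-1 lay above that in NB4 for 26 of 34 members, where 40.7% of all genes did, and the median difference was 0.13, where that of all genes was -0.05. No member was called, where 14 genes were in all (0.193%). At an unadjusted p under 0.05, 6 members were above, E2F1, DTL, TK1, UNG, MCM2 and POLD1, where 3.94% of all genes were.

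E2F1 had the largest difference, 0.49 on the log2 scale (SE 0.12, 95% interval 0.22 to 0.75, limma adjusted p = 0.188). That of TK1 was 0.38 (SE 0.13, limma adjusted p = 0.296), that of UNG 0.38 (SE 0.13, limma adjusted p = 0.306) and that of DTL 0.37 (SE 0.10, limma adjusted p = 0.230). For MCM7 the difference was -0.04 (SE 0.12) with an interval of -0.31 to 0.23, and for PCNA it was -0.07 with an interval of -0.33 to 0.20. Of the 33 members tested in each line, 20 were negative in both, 1 was positive in both, 11 were positive in Kasumi-1 and negative in NB4, and 1 was the reverse. MCM7, RFC2, UNG, MSH6 and DTL, 5 of these 33, were lower without overlap in both lines, where 1.65% of the 5769 genes tested in each line were.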

How the data were processed

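RNA of 10 libraries was sequenced. Per the labels' protocols, Trizol-extracted total RNA went into a stranded mRNA library kit. Per the submitters' processing notes, the tools were HTSeq, Cufflinks, HISAT2 and Trimmomatic and the build hg38, without versions or roles. The authors deposited FPKM per sequence record for Kasumi-1 (29053 rows, of which 37.5% were matched to 10802 symbols, the records of members mostly in another version). The deposited NB4 table is named for FPKM, but its columns sum to 999679 to 999758, so its values were taken as TPM. Its 121005 transcripts were summed to 21961 genes through GENCODE 29, and 3.04% of TPM stayed unmatched. FPKM values were whole fragments in 12130 of the 12130 rows at 1 FPKM or more in at least 3 libraries, and in 4718 of 4864 rows that stayed under 1 FPKM but above 0 (tolerance 0.01 of a fragment).

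JOA was compared with control within each line by limma 3.58.1 (R 4.3.3; tables read with Python 3.11.15) on log2(value + 1) with a variance trend, on genes at 1 or more in as many libraries as the group has, with calls at an adjusted p under 0.05 (Benjamini-Hochberg). Log2(value + 1) understates changes of low genes. The scripts were tested on simulated data. Control and JOA libraries share replicate numbers. Same-numbered Kasumi-1 libraries deviated together (correlations 0.33, 0.5 and 0.424, all others at -0.0611 or below), so the number was also used as a block. This pairing comes from the values and not from a label. The deviations are from group means and cancel within a group, so the negative correlations are not independent of the positive ones. No source says whether replicates were separate cultures. The p-values therefore rest on the spread between these libraries, possibly a technical one. Counting errors cover counting only.

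The members and gene lists were chosen with earlier results of these data known, so no list was tested. Library values are given for the members with the lowest p in each role or the 3 largest changes each way in a line (mean of at least 5), for members called, and for E2F1, CCNE1, MCM2 to MCM7, PCNA, RRM2 and TYMS. Of the members, 16 overlap another gene on the opposite strand and 7 have named pseudogenes, and the handling of strand and multiple matches is not given in the sources used here.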

Additional observations from a re-analysis of the deposited data

Results flagged for a closer look

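E2F1 and TK1 were flagged from the values as deposited. Their JOA and control libraries did not overlap in either line and differed in opposite directions. With median-ratio scaling, an alternative added after the data were seen for this count, the Kasumi-1 groups overlapped, at 19.2 to 23.3 with JOA and 18.8 to 19.6 in control for E2F1 and at 87.2 to 95.8 with JOA and 84.8 to 90.5 in control for TK1 (scaled FPKM). For E2F1 the log2 change with JOA in Kasumi-1 exceeded that in NB4 by 0.49 (limma adjusted p = 0.188 over 7261 genes), with, as deposited, 3 of 3 JOA libraries above every control in Kasumi-1 and 2 of 2 below every control in NB4. For TK1 the difference was 0.38 (limma adjusted p = 0.296), with the same counts of libraries, and its NB4 change of -0.26 was -0.12 without JOA replicate 2 and -0.41 without JOA replicate 1. The difference itself was tested in both cases and did not pass the threshold. Of all genes tested, 16% lay above every control in Kasumi-1 and 11% lay below every control in NB4. The share of all genes with both was not counted, so these members cannot be set beside it.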

How the results depend on the processing

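Of 451 values of single members under the alternatives, 435 kept their direction and side of the threshold, 4 newly passed it (MCM7 in Kasumi-1 and UNG in NB4 with the replicate block, UNG and DTL in NB4 with shared variance) and 12 changed sign. In Kasumi-1 MCM2 became 0.04 with quantile scaling and 0.00 without control 2 or JOA 3. TYMS became -0.04 with median-ratio scaling, -0.03 with quantile scaling, -0.02 without control 1 and -0.04 without JOA 3 (-0.04 to 0.07 over single libraries left out). In NB4 CCNE2 became -0.02 with quantile scaling, -0.08 from protein-coding transcripts and -0.15 without control 2 (-0.15 to 0.35 over single libraries left out), MCM4 became 0.03 without control 1, and E2F2 0.00 without JOA 2. The member median of Kasumi-1 was -0.11 with median-ratio scaling and -0.07 to -0.00 when single libraries were left out (-0.00 without control 2). The NB4 median moved to -0.24 under median-ratio and -0.21 under quantile scaling, to -0.20 without mitochondrial transcripts and to between -0.15 and -0.11 without single libraries, with 36 to 43 negative members. With the replicate block limma called 985 genes and 1 member in Kasumi-1, against 0 without. Every other Kasumi-1 alternative called 0. The numbers do not pair the NB4 libraries (correlation 0.0653). With 2 libraries per group, all pairs there give the same correlation up to its sign. In NB4 the block called 146 genes and 1 member, UNG (limma adjusted p = 0.0429), in place of 1 and 0. NB4 gave 0 calls with a pseudocount of 0.1, no filter, median-ratio or quantile scaling, 5 without a variance trend, 13 from protein-coding transcripts and 156 (2 members) with shared variance. Leaving out single NB4 libraries gave 1 to 6 (2 without control 2, 6 without JOA 1). The difference between lines had 14 calls, and 2 with a pseudocount of 0.1, 36 with no filter, 36 with the block, 1 with both lines rescaled and 2 to 100 without single libraries. It fell to 2, 4 and 5 without Kasumi-1 controls 1, 2 and 3 and to 3, 9 and 4 without its JOA libraries 1, 2 and 3, and was 100 and 25 without NB4 controls 1 and 2 and 38 without NB4 JOA 1. No member was among these. Where an NB4 group keeps 1 library, that library is assumed to vary like the rest. The cause of these shifts was not tested. NB4 depth is unknown, and its 2 libraries per group limit precision.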
